A study of Mus musculus with 7 samples.

Results

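Natural killer (NK) cells of the mouse mammary gland were compared with the T and B cells of the same glands, using the cell type name deposited for every cell. Of 13684 cells, 40 were named NK cells and 60 were named T and B cells, a single class without a further split. UMI counts were summed over the cells of a type within a mouse, and the 2 types were paired within the 5 mice that had 3 or more cells of both, which held 88 cells, 38 NK cells and 50 T and B cells. The glands were abdominal #4 glands, taken with their lymph nodes removed from nulliparous females at diestrus, and all mice shared a mixed FVB, 129 and C57BL/6J background with no treatment named. Mice Young A, B and C were 3 to 4 months old and Aged A, B, C and D were 13 to 14 months old, the letters naming different animals, with 1 10x 3′ library of unsorted cells per mouse. Aged C and Aged D had 1 NK cell each and entered the counts of cells with marker UMIs, the comparisons of shares and of T and B cells by age, and an alternative that takes 1 cell as enough.

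NK cells are innate lymphocytes that kill target cells with granzymes and secrete cytokines. Many of their activating receptors carry no signalling motif of their own and signal through adaptor proteins such as FcRγ, encoded by Fcer1g, and DAP12, encoded by Tyrobp. T cells recognise antigen through a rearranged receptor that signals through the CD3 chains and needs costimulation, for which CD28 is the best known receptor, and B cells signal through CD79 beneath their surface antibody. Cytotoxic T cells and NK cells share much of their granule content, and both are found among the epithelial ducts of the mammary gland.

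The NK sums of Young A, B and C and Aged A and B came from 9, 3, 16, 5 and 5 cells and the T and B sums from 4, 8, 8, 11 and 19 cells, an order kept for all values below. The sums held 12916 to 82092 UMIs, so that 3 UMIs, taken here as the floor of a count of 0, equalled 232 CPM (counts scaled to the same total in every sum) in the smallest and 36.5 CPM in the largest. Cells had 2773 to 10882 UMIs and 777 to 2480 detected genes, with median depths of 4224 UMIs in NK cells and 4391.5 in T and B cells. Of these cells 2 shared a barcode with a cell of another library, and none of either type was marked as a doublet, against 73 doublets in the whole series. The floors and all confidence intervals cover counting error only. A difference between sums cannot tell fewer expressing cells from less RNA per cell.

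The names were checked against marker genes cell by cell. A UMI of Fcer1g or Tyrobp was found in 37 of 40 NK cells (92.5%, 95% Wilson interval 80.1% to 97.4%) and in 7 of 60 T and B cells (11.7%, 5.77% to 22.2%), against 4.72% of the 1993 fibroblasts, which should lack both and had a median of 4414 UMIs. Ncr1, the activating receptor NKp46, had a UMI in 17 NK cells (42.5%) and 2 T and B cells (3.33%), and in 0 fibroblasts. Gzma, encoding granzyme A, had a UMI in 24 NK cells (60%) and 10 T and B cells (16.7%). Klrb1c, the NK1.1 receptor, had one in 10 NK cells (25.0%) and 4 T and B cells (6.67%), whereas Eomes, a transcription factor of NK cells and CD8 T cells, had one in 22.5% of NK cells and 18.3% of T and B cells. Prf1, which encodes perforin, was found in 0 of 40 NK cells, which allows a share of cells with a UMI of up to 7.5% by a floor of 3 cells and up to 8.76% by the Wilson interval.

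CD3 transcripts were not limited to the T and B cells. At least 1 UMI of the CD3 genes Cd3d, Cd3e and Cd3g was present in 19 of the 40 NK cells, against 51 of the 60 T and B cells and 0.803% of fibroblasts, and with every cell thinned to 2000 UMIs the shares were 47.5%, 80.0% and 0.652%. Of the 40 NK cells, 21 had a UMI of an adaptor gene and none of Cd3, 16 had both, 3 had Cd3 alone and 0 had neither. Of the 17 NK cells with an Ncr1 UMI, 14 had no Cd3 UMI and 3 had one. The name NK cell therefore covered cells with and without CD3 transcripts, at this depth in nearly equal numbers. Trac, Trbc1 and Trbc2, genes of the T cell receptor chains, were not among the measured genes. The same held for Ighm, Ighd, Igkc and Iglc2, genes of the antibody chains.

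Of the 60 T and B cells, 48 had a Cd3 UMI and no adaptor UMI, 3 had both, 5 had neither, and 4 had 10 or more adaptor UMIs and no Cd3 UMI. Cd8a or Cd8b1, the chains of the CD8 coreceptor, had a UMI in 17 of them and Cd4 in 7, whereas Cd4 had a UMI in 0 NK cells. Cd79a, Cd79b or Ms4a1, which mark B cells, had a UMI in 3 of the 60 cells (5.00%, 1.71% to 13.7%), against 1.35% of fibroblasts. By these genes the class consisted largely of cells with CD3 transcripts, and few of them had B cell transcripts. Cd79a itself was found in the T and B sum of Aged A alone among the 5 mice, at 242 CPM. Of 12 listed B cell genes 8 were measured. In Young A, B and C and Aged A and B they summed to 177, 94.8, 2820, 371 and 24.4 CPM in T and B cells, highest in Young C. In NK cells they summed to 881, 0, 297, 141 and 42.5 CPM.

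**Figure D1:**
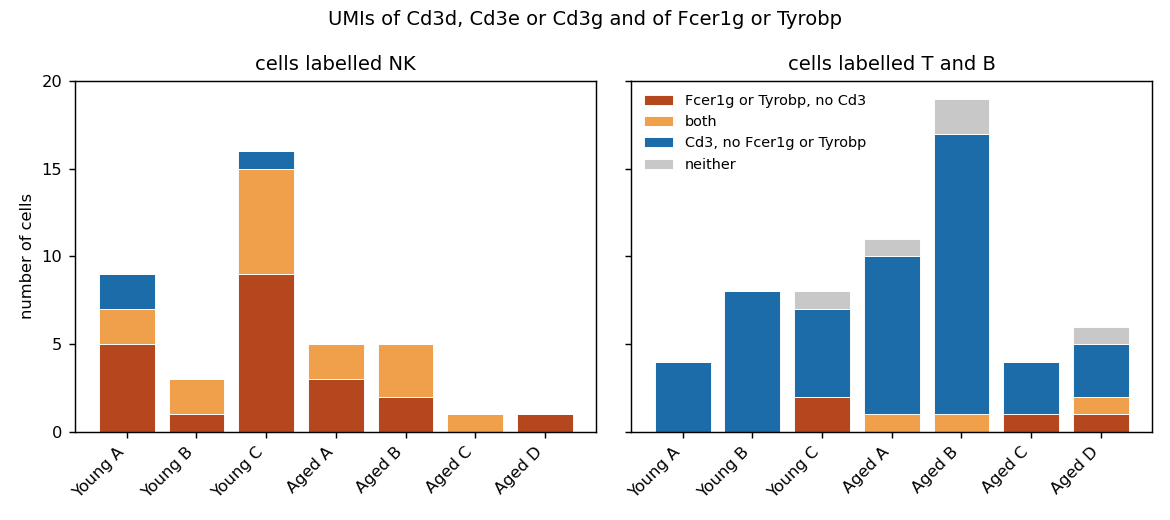
Number of cells (y axis) by mouse (x axis) among cells labelled NK (left) and T and B (right), divided by whether the cell had a UMI of Cd3d, Cd3e or Cd3g and of Fcer1g or Tyrobp. Adaptor UMIs without Cd3 made up 21 of the 40 NK cells and 4 of the 60 T and B cells.

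Across the 759 genes that passed the low-count filter, 10 genes were called higher in NK cells (1.32% of the genes tested) and 2 were called lower (0.264%) at an adjusted p below 0.05 and at least 2-fold, by edgeR's quasi-likelihood test with the mouse as a block and Benjamini-Hochberg adjustment. The genes higher in NK cells were Ncr1, Cd160, Dcn, Fcer1g, Tyrobp, Gsn, Cd7, Klrd1, Xcl1 and AW112010, and those lower were Ifi27l2a and Rora. Here and below a gene is said to be called where edgeR's test called it. DESeq2 on the same 759 genes called all 10 and, in addition, Gzma, Gzmb, Ctsw, Nkg7, Klrk1, Irf8 and Pfn1 higher, and called Ifi27l2a, Cd28, Ramp3 and Fabp4 lower but not Rora. The study named the cells from clusters of the same transcripts, and it used Ncr1, Cd7 and AW112010 to mark them. The p-values therefore are not independent evidence that the types differ. They set a difference against its variation between mice and the counting noise of the sums. A call did not require the same direction in every mouse. Without any 1 mouse the number called higher fell to between 1 and 6, being 2 without Young A, 6 without Young B, 4 without Young C, 1 without Aged A and 3 without Aged B, and the number called lower to 0 or 1.

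**Figure D2:**
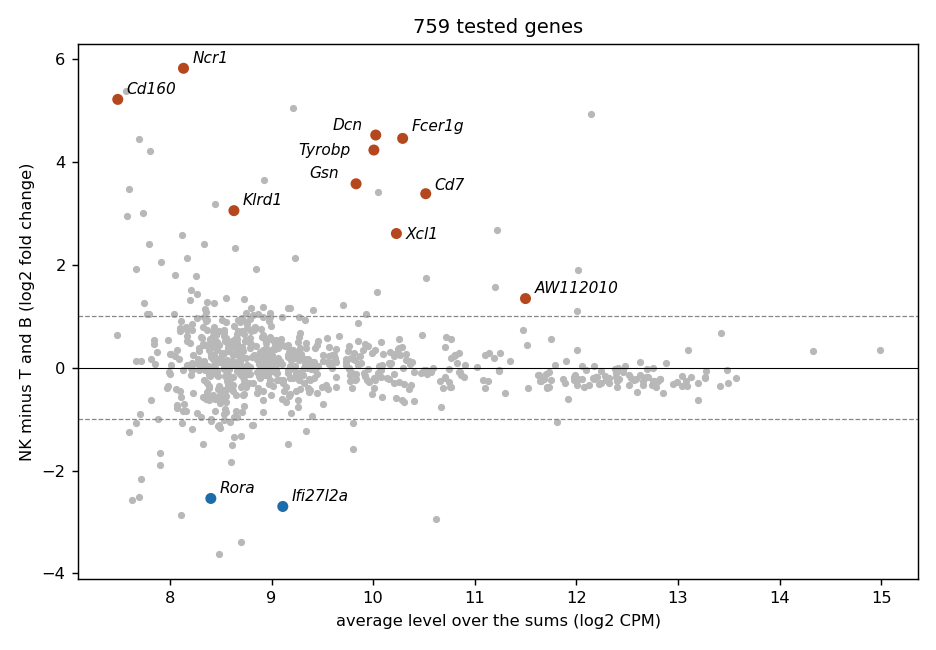
Fitted difference between NK cells and T and B cells (y axis, log2 fold change) against the average level over the sums (x axis, log2 CPM) for the 759 tested genes. Coloured points are the 10 genes called higher and the 2 called lower in NK cells, and dashed lines mark 2-fold.

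The genes of both signalling adaptors were called higher in NK cells. Fcer1g (chr1:171229572-171234365 on GRCm38 in GENCODE, the build and annotation of all gene positions here) stood at 1548, 1703, 2108, 1367 and 1361 CPM in NK cells and 0, 0, 495, 48.4 and 24.4 CPM in T and B cells, so that every NK sum lay above every T and B sum (log2 fold change 4.46, SE 0.71, adjusted p = 0.0243). Tyrobp (chr7:30413760-30417585) stood at 1182, 387, 1149, 2734 and 1063 CPM in NK cells and 0, 0, 279.8, 145 and 0 CPM in T and B cells, again without overlap (log2 fold change 4.23, SE 0.76, adjusted p = 0.0359). The T and B level of both genes was highest in Young C, whose T and B class held 2 of the 4 cells with 10 or more adaptor UMIs and no Cd3 UMI. With the T and B cells that lacked Cd3 UMIs left out, an alternative chosen after seeing the data, the log2 fold changes were 6.01 and 5.49 and both genes were still called.

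Of the 17 adaptor and kinase genes listed, 6 were tested, these 2 were called higher and none was called lower, with a median log2 fold change of -0.05 over the 6 tested against 0.04 over all 759 genes. Hcst, encoding the adaptor DAP10, stood at 172, 697, 473, 518 and 425 CPM in NK cells and 355, 917, 495, 161 and 512 CPM in T and B cells, higher in NK cells in 1 of 5 mice and overlapping. Lat, the scaffold beneath the T cell receptor, stood at 43.0, 0, 229.8, 94.3 and 85.1 CPM in NK cells and 828, 253, 237, 291 and 317 CPM in T and B cells and was lower in NK cells in all 5 mice without overlap, but missed the call (log2 fold change -1.84, SE 0.65, adjusted p = 0.312).

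Of 26 NK receptor genes, 9 were tested and Ncr1, Klrd1 and Cd160 were called higher, with a median log2 fold change of 3.06 over the 9. Ncr1 (chr7:4337724-4345164) stood at 172, 155, 108, 566 and 808 CPM in NK cells and 0, 0, 21.5, 0 and 0 CPM in T and B cells (log2 fold change 5.82, SE 1.00, adjusted p = 0.0327). The T and B value rested on 1 UMI, and over the summed counts the ratio of NK to T and B cells was 65.7, with an exact 95% counting interval of 11.3 to 2649. Cd160 (chr3:96798763-96829351), a receptor of NK cells and cytotoxic T cells, stood at 64.5, 309.7, 108, 94.3 and 468 CPM in NK cells and 0, 0, 0, 0 and 12.2 CPM in T and B cells (log2 fold change 5.22, SE 1.04, adjusted p = 0.0477). It too had 1 UMI in T and B cells, and the ratio of summed counts was 37.6 (6.21 to 1536). Klrd1 (chr6:129591782-129598775), encoding CD94, the partner of the NKG2 receptors, stood at 193, 1084, 189, 329.9 and 808 CPM in NK cells and 0, 63.2, 43.1, 32.3 and 134 CPM in T and B cells (log2 fold change 3.06, SE 0.47, adjusted p = 0.0243). All 3 genes were higher in NK cells in every mouse and did not overlap between the types. Of all 759 tested genes, 17 had every NK sum above every T and B sum (2.24%). The 0 in the T and B sum of Young A allows up to 177 CPM by the floor of 3 UMIs. That is above the NK levels of Ncr1 and Cd160 there. All 3 genes passed the low-count filter through NK sums alone, so their tests are given as a description. None of them was called where the low-count filter went by cell type.

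Of the other 6 tested receptors none was called by edgeR, whereas DESeq2 called Klrk1. Klrk1, encoding the activating receptor NKG2D and one of the study's NK signature genes, stood at 193, 619, 311, 566 and 383 CPM in NK cells and 0, 0, 21.5, 48.4 and 146 CPM in T and B cells, a separation without overlap that is given as a description. Klrc1, the inhibitory partner of CD94, stood at 107, 309.7, 365, 377 and 128 CPM in NK cells and 0, 31.6, 21.5, 0 and 219 CPM in T and B cells and was higher in NK cells in 4 of 5 mice (log2 fold change 2.59, SE 0.99, adjusted p = 0.375). Il2rb, the receptor chain that NK cells use for interleukin 15, stood at 301, 309.7, 365, 613 and 42.5 CPM in NK cells and 0, 316, 151, 178 and 219 CPM in T and B cells, with the ranges overlapping.

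The Klra genes encode the Ly49 receptors of mouse NK cells, a family of near-identical and strain-variable copies, so that reads may be shared between members. Klra7 stood at 258, 465, 257, 0 and 0 CPM in NK cells, Klra1 at 86.0, 155, 203, 0 and 0 and Klra9 at 86.0, 77.4, 243, 0 and 0, so that all 3 were found in every young mouse and in neither of the aged mice. The labels do not give each mouse's share of the 3 backgrounds, so that age and strain of origin cannot be told apart for these genes. Klra4 showed the other order, at 0, 0, 13.5, 329.9 and 255 CPM. A UMI of Klra1, Klra7 or Klra9 was found in 18 NK cells, all of them young, and of Klra4 in 8, of which 1 was young. These 4 genes were singled out after their values were seen, and none passed the filter of the age test. A count of 0 allows up to 3 UMIs, which equal 141 CPM in the NK sum of Aged A and 128 CPM in that of Aged B, above the levels of Klra1 and Klra9 in some young mice. In T and B cells Klra7 had no UMI, and its summed count in NK cells was at least 16.5-fold higher against a floor of 3 UMIs over the group, although its call failed in the test across genes (adjusted p = 0.296).

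**Figure D3:**
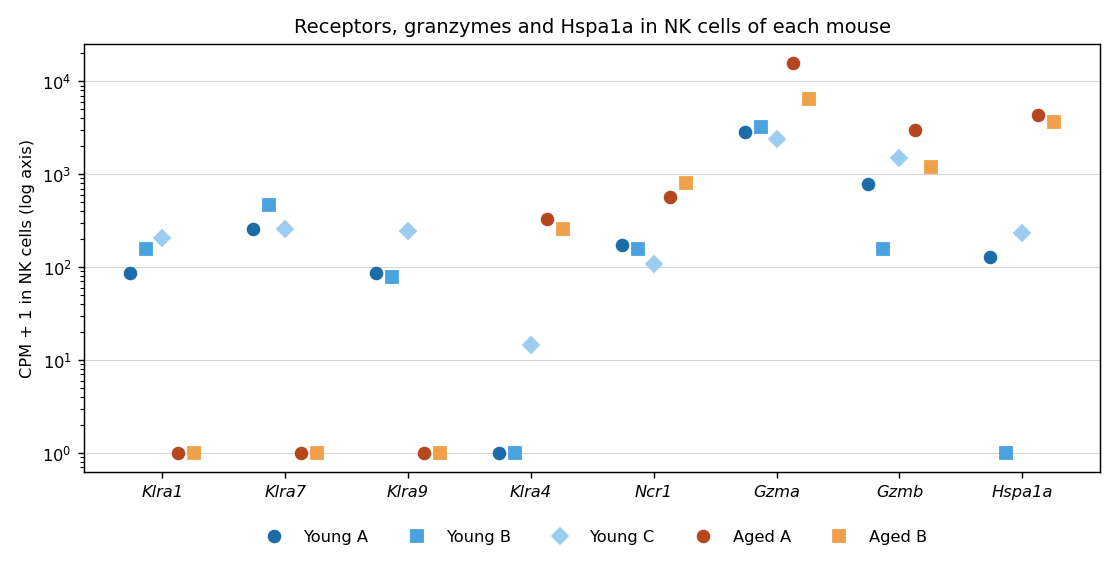
Level in the NK sums of 3 young and 2 aged mice (y axis, CPM + 1 on a log axis) for Ly49 receptor genes, Ncr1, granzymes and Hspa1a (x axis). Klra1, Klra7 and Klra9 lay above 0 in the young mice alone, Klra4 at 329.9 and 255 CPM in the aged mice, and points at 1 are sums without a UMI.

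Cd7 (chr11:121036747-121039418), a surface protein of NK cells and T cells, was the gene with the smallest p. It stood at 1419, 2090.4, 1122, 2875 and 1999 CPM in NK cells and 118, 316, 108, 178 and 219 CPM in T and B cells, with every NK sum above every T and B sum (log2 fold change 3.39, SE 0.30, adjusted p = 0.00112). Cd7 kept its call in 17 of the 21 alternatives in which it was tested, including the removal of doublets, which removed no cell. It lost its call in young mice alone, in aged mice alone, where cells with UMIs of other cell types were left out, and where the NK cells with a Cd3 UMI were left out (log2 fold change 1.56, adjusted p = 0.319). AW112010 (chr19:11047612-11055808), annotated as a long intergenic RNA, stood at 2493, 3174, 2568, 4336 and 2084 CPM in NK cells and 1124, 885, 1378, 1502 and 975 CPM in T and B cells (log2 fold change 1.35, SE 0.21, adjusted p = 0.0243).

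Xcl1 (chr1:164931644-164935527), the chemokine lymphotactin that attracts cross-presenting dendritic cells, was the only 1 of 16 listed cytokine and chemokine genes called, of 6 tested. It stood at 709, 2245, 2257, 989.8 and 978 CPM in NK cells and 0, 285, 409, 96.9 and 463 CPM in T and B cells, higher in NK cells in all 5 mice (log2 fold change 2.61, SE 0.47, adjusted p = 0.0359). Ccl5, a chemokine of NK and cytotoxic T cells, was abundant in both types, at 4277, 7200.4, 3973, 26914 and 5827 CPM in NK cells and 1124, 11887, 3143, 4667 and 8966 CPM in T and B cells, and overlapped between them. Ifng, encoding interferon-γ, stayed low in both, at 43.0, 0, 27.0, 0 and 42.5 CPM in NK cells and 59.1, 63.2, 86.1, 32.3 and 60.9 CPM in T and B cells.

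**Figure D4:**
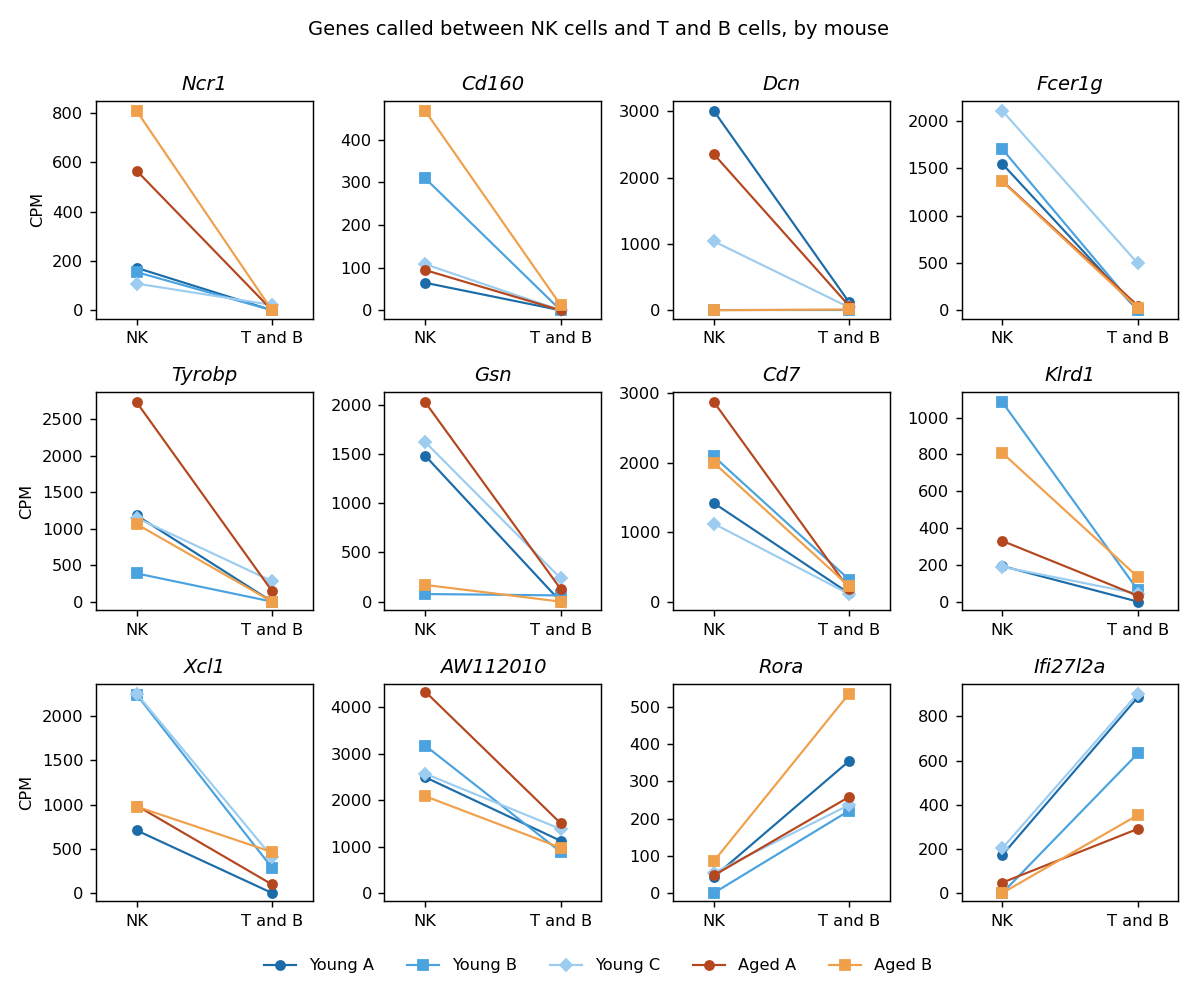
Level of the 12 called genes in NK cells and in T and B cells (x axis) of each of the 5 paired mice (y axis, CPM), with lines joining the 2 sums of a mouse. All lines fall from NK to T and B cells in 9 of the 10 genes called higher and rise in Rora and Ifi27l2a, whereas Dcn has 2 mice with levels near 0 in both types.

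Promoter sequences, 250 bases before to 50 bases after a start site, are shown for 5 called genes of lymphocytes, namely 4 genes called higher in NK cells and the 1 transcription factor called lower. They are RefSeq sequences on build GRCm38.p6, written 5′ to 3′ along the gene. Capitals mark exact matches on either strand to TCACACC (T-box), TGTGGT (RUNX), AGGAAG (ETS) and AGGTCA (ROR), the core letters bound by factor families of lymphocytes.
Fcer1g (chr1:171234300-171234599, minus strand): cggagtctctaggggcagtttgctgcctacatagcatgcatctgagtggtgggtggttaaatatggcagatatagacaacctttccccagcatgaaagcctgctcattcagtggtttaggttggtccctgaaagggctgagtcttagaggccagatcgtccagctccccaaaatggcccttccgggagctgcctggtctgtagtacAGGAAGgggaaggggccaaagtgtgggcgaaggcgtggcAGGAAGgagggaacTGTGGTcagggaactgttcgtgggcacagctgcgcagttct
Ncr1 (chr7:4337465-4337764, plus strand): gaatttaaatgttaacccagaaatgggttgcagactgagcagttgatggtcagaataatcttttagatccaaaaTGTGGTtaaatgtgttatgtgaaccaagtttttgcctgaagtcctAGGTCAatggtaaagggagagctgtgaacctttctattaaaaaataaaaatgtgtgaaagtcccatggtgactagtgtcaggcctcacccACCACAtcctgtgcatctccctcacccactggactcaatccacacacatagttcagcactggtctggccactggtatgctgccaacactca
Xcl1 (chr1:164935473-164935772, minus strand): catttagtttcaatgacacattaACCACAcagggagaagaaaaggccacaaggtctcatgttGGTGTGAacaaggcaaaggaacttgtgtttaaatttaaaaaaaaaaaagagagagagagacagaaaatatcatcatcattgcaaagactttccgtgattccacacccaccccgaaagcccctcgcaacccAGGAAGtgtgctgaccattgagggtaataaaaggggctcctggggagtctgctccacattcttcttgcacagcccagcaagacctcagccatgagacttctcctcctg
Cd160 (chr3:96829302-96829601, minus strand): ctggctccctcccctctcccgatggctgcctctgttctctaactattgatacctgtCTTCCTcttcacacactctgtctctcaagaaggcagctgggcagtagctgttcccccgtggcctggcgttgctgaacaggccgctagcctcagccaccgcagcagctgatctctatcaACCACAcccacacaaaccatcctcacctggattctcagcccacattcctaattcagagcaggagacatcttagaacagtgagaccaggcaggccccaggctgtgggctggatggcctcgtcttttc
Rora (chr9:68653536-68653835, plus strand): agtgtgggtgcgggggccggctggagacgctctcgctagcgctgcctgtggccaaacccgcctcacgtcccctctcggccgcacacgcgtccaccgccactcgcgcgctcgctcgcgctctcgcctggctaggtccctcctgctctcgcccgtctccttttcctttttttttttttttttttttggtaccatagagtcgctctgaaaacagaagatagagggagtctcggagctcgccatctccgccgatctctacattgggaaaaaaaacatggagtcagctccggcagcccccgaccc

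Counting the start site as 0, Fcer1g had AGGAAG at -44 and -5 and TGTGGT at 9, and Ncr1 had TGTGGT at -176 and, on the opposite strand, at -41, with AGGTCA at -131. Xcl1 had TGTGGT at -227 and TCACACC at -188, both on the opposite strand, and AGGAAG at -58. Cd160 had TGTGGT at -76 and AGGAAG at -194, both on the opposite strand, and Rora had none of the 4. No matches overlapped each other. Of all 32851 promoters of this length, 3.98% held TCACACC, 16.8% TGTGGT, 35.4% AGGAAG and 16.3% AGGTCA, so a match describes letters and not a bound site. Ncr1 and Cd160 had 2 entries each, of which the one listed first is shown. The other entry of Cd160, at a start site within the gene, had TCACACC at -189 on the opposite strand, TGTGGT at -101 and AGGAAG at -133 and 31. No entry was held for Tyrobp, Cd7, Klrd1 and Ifi27l2a.

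Calls of granule genes differed between the tools. Of 19 cytotoxic genes, 8 were tested, none was called by edgeR, 6 had an unadjusted p below 0.05, 4 (Gzma, Gzmb, Ctsw and Nkg7) were called higher by DESeq2, 5 were higher in NK cells in all 5 mice, and the median log2 fold change was 2.14. Across all 759 genes, 43 were higher in all 5 mice (5.67%) and 66 were lower in all 5 (8.7%). Gzma stood at 2837, 3252, 2406, 15554 and 6423 CPM in NK cells and 0, 443, 926, 0 and 12.2 CPM in T and B cells. Gzmb, encoding granzyme B, stood at 774, 155, 1500.1, 2969 and 1191 CPM in NK cells and 59.1, 189.7, 64.6, 48.4 and 207 CPM in T and B cells. Nkg7, a granule membrane protein, stood at 1719.5, 2090.4, 2689, 3818 and 1786 CPM in NK cells and 591, 1454, 1119, 258 and 1059.8 CPM in T and B cells. Gzma and Nkg7 did not overlap between the types, whereas Gzmb was higher in the T and B cells of Young B. Ctsw, encoding cathepsin W, stood at 473, 542, 662, 801 and 681 CPM in NK cells and 118, 63.2, 301, 32.3 and 292 CPM in T and B cells. These 4 genes mark NK cells in the study, so their values are a description.

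Serpinb6b, a granzyme inhibitor, stood at 150.5, 155, 608, 377 and 213 CPM in NK cells and 0, 31.6, 129, 80.7 and 36.5 CPM in T and B cells and fell just outside the call (log2 fold change 2.40, SE 0.49, adjusted p = 0.0522), next to Cd160 just inside it (adjusted p = 0.0477). Srgn, the proteoglycan that packs granules, stood at 580.3, 852, 770.3, 801 and 638 CPM in NK cells and 1064, 822, 452, 1437 and 1255 CPM in T and B cells and overlapped. Gzmk, encoding granzyme K, had the other order, at 21.5, 0, 0, 0 and 0 CPM in NK cells and 0, 221, 86.1, 96.9 and 134 CPM in T and B cells, and was too low to be tested. Genes given here without a call that the study does not name for these cells, such as Serpinb6b, Gzmk, Lat, Hcst, Cd6, Cd5, Icos, Pdcd1, Tnfrsf4, Il2ra, Ccr7, Il7r and Junb, were singled out after their values were seen.

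Of the 16 T cell receptor and coreceptor genes measured, 7 were tested and none was called by edgeR, with 2 at an unadjusted p below 0.05 and 1, Cd28, called lower by DESeq2. Of the 7, 2 (Cd28 and Icos) were lower in NK cells in all 5 mice, against 66 of all 759 tested genes (8.7%). Cd3e stood at 322, 155, 284, 47.1 and 723 CPM in NK cells and 296, 189.7, 279.8, 388 and 341 CPM in T and B cells. Cd3d stood at 172, 309.7, 311, 94.3 and 595 CPM in NK cells and 828, 474, 215, 209.9 and 621 CPM in T and B cells. Cd3g stood at 429.9, 465, 770.3, 989.8 and 1191 CPM in NK cells and 1005, 917, 344, 436 and 633 CPM in T and B cells. All 3 CD3 genes overlapped between the types. Cd28, the costimulatory receptor that the study lists for T and B cells, stood at 0, 232, 27.0, 0 and 42.5 CPM in NK cells and 473, 379, 366, 388 and 585 CPM in T and B cells, without overlap. Icos, a related costimulatory receptor, stood at 0, 77.4, 67.6, 0 and 0 CPM in NK cells and 473, 379, 86.1, 129 and 341 CPM in T and B cells and missed the call (log2 fold change -2.87, SE 0.93, adjusted p = 0.294).

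Cd6, which dampens T cell receptor signals, had no UMI in any NK sum and stood at 237, 221, 43.1, 194 and 158 CPM in T and B cells. Cd5, a relative of Cd6, stood at 0, 0, 13.5, 0 and 0 CPM in NK cells and 177, 158, 64.6, 64.6 and 24.4 CPM in T and B cells. By the floor of 3 UMIs, the absence of Cd5 from the NK sums of Young B, Aged A and Aged B, and of Cd6 from that of Young B, allows levels above those of the T and B cells. Cd8a stood at 21.5, 0, 40.5, 141 and 0 CPM in NK cells and 0, 285, 86.1, 32.3 and 73.1 CPM in T and B cells. Cd8b1 stood at 86.0, 0, 0, 0 and 0 CPM in NK cells and 0, 253, 279.8, 16.1 and 85.3 CPM in T and B cells, so that Cd8a was found in 3 and Cd8b1 in 1 of the 5 NK sums. None of these 4 genes passed the filter on low counts.

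Rora (chr9:68653786-69388246), encoding the nuclear receptor RORα, was the only 1 of 23 listed transcription factors called by edgeR, of 9 tested, and DESeq2 called Irf8 in its place. It stood at 43.0, 0, 54.1, 47.1 and 85.1 CPM in NK cells and 355, 221, 237, 258 and 536 CPM in T and B cells, so that every T and B sum lay above every NK sum (log2 fold change -2.54, SE 0.49, adjusted p = 0.043). The 0 in the NK sum of Young B allows up to 232 CPM by the floor of 3 UMIs, above the T and B level there. Rora passed the low-count filter through T and B sums alone, so its test is given as a description. Rora kept its call in 5 of the 14 alternatives in which it was tested, including the removal of doublets, which removed no cell. A UMI of it was found in 7 NK cells (17.5%) and 29 T and B cells (48.3%), but also in 32.4% of fibroblasts.

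Irf8, a transcription factor of NK cells and myeloid cells, stood at 301, 77.4, 905, 1319.8 and 128 CPM in NK cells and 0, 31.6, 237, 0 and 0 CPM in T and B cells and was higher in NK cells in all 5 mice, but missed edgeR's call (log2 fold change 3.66, SE 0.91, adjusted p = 0.102). Id2, which lymphocytes of both kinds need, stood at 258, 774, 959.5, 424 and 553 CPM in NK cells and 414, 253, 581, 209.9 and 560.3 CPM in T and B cells. Klf2, which controls tissue exit, stood at 731, 309.7, 1000.1, 424 and 170.1 CPM in NK cells and 177, 1233, 474, 242 and 658 CPM in T and B cells. Both overlapped between the types. The T-box genes Eomes and Tbx21 stood at no more than 122 and 94.3 CPM in any NK sum and were not tested.

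Ifi27l2a (chr12:103442167-103443680), an interferon-induced gene, was the second gene called lower in NK cells. It stood at 172, 0, 203, 47.1 and 0 CPM in NK cells and 887, 632, 904, 291 and 353 CPM in T and B cells (log2 fold change -2.70, SE 0.52, adjusted p = 0.043). It had a UMI in 9 NK cells (22.5%), 22 T and B cells (36.7%) and 79.5% of fibroblasts. In this direction 14 of the 759 tested genes had every NK sum below every T and B sum (1.84%), and in the other direction 17 had every NK sum above (2.24%).

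Dcn and Gsn, the remaining called genes, are known from other cells, Dcn (chr10:97479609-97518143) encoding the matrix protein decorin of fibroblasts and Gsn (chr2:35256380-35307892) the actin-severing protein gelsolin. Dcn stood at 3009, 0, 1041, 2357 and 0 CPM in NK cells and 118, 0, 43.1, 64.6 and 12.2 CPM in T and B cells, higher in NK cells in 3 mice and lower in 1 (log2 fold change 4.53, SE 0.60, adjusted p = 0.0243). Gsn stood at 1483, 77.4, 1622, 2027 and 170.1 CPM in NK cells and 0, 63.2, 237, 129 and 0 CPM in T and B cells and was higher in NK cells in all 5 mice (log2 fold change 3.58, SE 0.66, adjusted p = 0.0359). Both were high in the same 3 mice, Young A, Young C and Aged A. Dcn had a UMI in 12 NK cells, 10 of which had 5 or more and the highest 49, and in 8 T and B cells with at most 5. In all cells outside the 2 types, Dcn stood at 2444, 1575, 3151, 664 and 232 CPM in the 5 mice.

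RNA of other cell types was present in cells of both types. The 9 fibroblast and endothelial markers, Dcn among them, summed to 4277, 77.4, 2203, 3111 and 85.1 CPM in NK cells, high in the same 3 mice as Dcn and Gsn, and to 60.9 to 6032 CPM in T and B cells. Among these markers, Dcn itself made up 3009, 1041 and 2357 CPM in the NK cells of Young A, Young C and Aged A. Of these markers 4 were tested and 1, Dcn, was called by edgeR, whereas DESeq2 also called Fabp4, which was lower in NK cells, and their part in the differences of Dcn and Gsn was not tested. Eng had no UMI in NK cells, and Col1a1 and Fn1 had none in T and B cells. The 11 epithelial markers summed to 309.7 to 9826 CPM and 414 to 7509 CPM, with 8 tested and none called by edgeR or DESeq2 or at an unadjusted p below 0.05. The 16 macrophage and dendritic cell markers summed to 77.4 to 9414 CPM and 24.4 to 743 CPM, and 426 of the 438 UMIs behind the highest value lay in 1 NK cell of Young A. Csf1r, Adgre1 and C1qc, which define macrophages, had no UMI in the paired sums of either type. Of the 16 markers 7 had no UMI in the NK sums, so the rest were found there. More than 10 UMIs of these lists were found in 20 of the 40 NK cells and 21 of the 60 T and B cells.

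With all such cells left out, an alternative added after the data were seen that leaves 2, 3, 9, 2 and 2 NK cells in the 5 mice, 12 genes were called higher and 3 lower, 6 and 1 of them shared with the calls above. Fcer1g, Tyrobp, Ncr1, Klrd1, Xcl1 and AW112010 were still called, Gzma, Gzmb, Irf8, Klrk1, Nkg7 and Pfn1 were called as well, Cd7 lost its call (log2 fold change 2.29, adjusted p = 0.0514), and Dcn and Gsn no longer passed the filter on low counts. Dcn is on the lists that define the cells left out, so this alternative itself removes the cells in which Dcn was high. In T and B cells the fibroblast and endothelial marker Fabp4, an adipocyte and endothelial fatty acid carrier, stood at 5677, 5058, 344, 80.7 and 36.5 CPM.

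Of 18 actin genes, Gsn not among them, 16 were tested and none was called by edgeR, with 1 at an unadjusted p below 0.05, and DESeq2 called Pfn1 higher. Pfn1, encoding profilin and listed by the study for NK cells, stood at 3783, 5342, 4176, 3299 and 2977 CPM in NK cells and 4317, 1834, 1571, 1130.5 and 1498 CPM in T and B cells and was higher in 4 of 5 mice, the exception being Young A. Of 9 MHC class I genes 5 were tested, with none called by either tool or at an unadjusted p below 0.05, B2m standing at 4385, 4568, 4744, 4525 and 4892 CPM in NK cells and 5914, 4553, 3530.2, 3439.8 and 5189 CPM in T and B cells. Of 13 immediate early genes 12 were tested, with none called by either tool and 1 at an unadjusted p below 0.05, and Junb was higher in all 5 mice (log2 fold change 0.56, SE 0.22, adjusted p = 0.425). None of 3 tested cytokine receptor genes of 16 listed, and none of 3 tested chemokine receptor and adhesion genes of 21 listed, was called by either tool or had an unadjusted p below 0.05. The residency integrin Itgae stood at 43.0, 0, 40.5, 94.3 and 128 CPM in NK cells and 0, 31.6, 0, 0 and 24.4 CPM in T and B cells.

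Of 12 checkpoint and costimulatory genes 3 were tested and Cd160 alone was called, by both tools. Pdcd1, encoding PD-1, Tnfrsf4, encoding OX40, and Il2ra, encoding the high-affinity interleukin 2 receptor chain, had no UMI in any NK sum, and Tnfrsf4 stood at 1005, 0, 0, 129 and 60.9 CPM in T and B cells. Ccr7, the lymph node homing receptor, stood at 43.0, 0, 0, 0 and 0 CPM in NK cells and 177, 126, 151, 64.6 and 97.5 CPM in T and B cells. Il7r, the interleukin 7 receptor, stood at 43.0, 0, 13.5, 0 and 0 CPM in NK cells and 177, 31.6, 21.5, 113 and 158 CPM in T and B cells. Of 13 listed γδ T cell genes 7 were measured, all near or at 0 and none tested. Trdc, Tcrg-C1, Tcrg-C2, Tcrg-C3, Tcrg-C4 and Trdv4 were not among the measured genes, so the presence of γδ T cells could not be assessed.

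No ribosomal protein gene was called by edgeR or DESeq2. Of 81 genes 77 were tested, 5 had an unadjusted p below 0.05, 28 were lower in NK cells in all 5 mice and 0 were higher in all 5, with a median log2 fold change of -0.21. Across all 759 tested genes, 81 had an unadjusted p below 0.05 and 66 were lower in NK cells in all 5 mice (8.7%). Their summed level was 265562, 284763, 280445, 235765 and 312505 CPM in NK cells and 265937, 384919, 333642, 319563 and 378709 CPM in T and B cells, lower in NK cells in 5 of 5 mice, though by little in Young A. Rpl13a, which the study lists for T and B cells, stood at 5911, 7587, 6501, 5939 and 7741 CPM in NK cells and 6742, 11097, 9471, 7655 and 10342 CPM in T and B cells. With the ribosomal protein and mitochondrial genes left out of the libraries, 3 genes were called higher in NK cells (Dcn, Cd7 and Klrd1) and 0 lower.

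Mitochondrially encoded genes pointed the same way, though none of the 10 tested was called by either tool or had an unadjusted p below 0.05. Of these genes 2 were lower in NK cells in all 5 mice, against 66 of all 759 tested genes (8.7%). The median mitochondrial percent per cell was 2.15, 2.63, 2.80, 1.72 and 1.98 in NK cells and 2.91, 3.07, 3.31, 3.42 and 2.98 in T and B cells, lower in NK cells in 5 of 5 mice. The mean difference was -0.882 percentage points ± 0.503 (SD, n = 5; exact two-sided permutation p = 0.0625, the smallest that 5 pairs allow, adjusted p = 0.3125). Genes per cell at an equal 2000 UMIs were higher in NK cells in 4 of 5 mice, by a mean of 55.4 ± 56.1 (exact permutation p = 0.125, adjusted p = 0.3125).

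UMIs per cell (mean difference -91.3 ± 835), genes per cell without thinning (6.2 ± 217) and the percent of cells called in S or G2M phase (-2.76 ± 15.7) differed by less than the spread between mice (SD, n = 5; exact permutation p = 0.9375, 1.0 and 0.6875). Phase calls alone do not show cycling, and of 11 cell cycle genes 6 were tested, with none called by either tool or at an unadjusted p below 0.05. Hmgb2, a chromatin protein abundant in dividing cells, stood at 429.9, 4645, 1865, 377 and 510.4 CPM in NK cells and 2188, 1043, 1335, 501 and 1279 CPM in T and B cells, highest in the NK cells of Young B.

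The aged and young mice were then compared within each type. Age and the processing of the libraries cannot be told apart in these data. In NK cells, 366 genes were tested in 3 young and 2 aged mice and 3 were called at 1.5-fold or more (0.82%), all higher in aged mice, Gm10260 and Hspa1a among them. Hspa1a, a heat shock chaperone whose reads may be shared with Hspa1b, stood at 129, 0 and 229.8 CPM in young and 4383 and 3615 CPM in aged NK cells (log2 fold change 4.76, SE 0.59, adjusted p = 0.0184). Without Young A, 13 genes were called.

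In T and B cells, 457 genes were tested in 3 young and 4 aged mice and 3 were called (0.656%), with Gm10260 higher and Ms4a4b and Fabp4 lower in aged mice. Ms4a4b, a membrane protein of T cells, stood at 1183, 506 and 990.2 CPM in young and 32.3, 122, 118 and 56.2 CPM in aged mice (log2 fold change -3.40, SE 0.49, adjusted p = 0.0123). Fabp4 stood at 5677, 5058 and 344 CPM and 80.7, 36.5, 0 and 112 CPM (adjusted p = 0.0253). Of the UMIs of its marker list in T and B cells, 96 of 102 in Young A and 136 of 165 in Young B lay in 1 cell. Fabp4 in all other cells stood at 6611, 12052 and 1989.9 CPM in young and 1149.5, 980.3, 1388 and 1864 CPM in aged mice. Ms4a4b stood at no more than 1.07 CPM in all other cells of any mouse. Without Young A, 1 gene was called.

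Gm10260, whose name marks a predicted gene and whose reads may be shared with near-identical copies, differed in the same way in both types and beyond them. It had 1 UMI in young and 104 in aged NK cells, a ratio of 310.3 with an exact counting interval of 54.5 to 12371. In T and B cells it had 0 UMIs in young mice and stood at 3876, 2997, 1580 and 3539.5 CPM in aged mice, at least 101-fold higher against a floor of 3 UMIs over the young group. In all other cells it stood at 7.34, 6.51 and 7.18 CPM in young and 3324, 2821, 2109 and 3198 CPM in aged mice. Hspa1a stood at 423, 875 and 403 CPM in the other cells of young mice and 792, 2039, 1440.4 and 3381 CPM in those of aged mice, and the age groups overlapped there.

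Whether the difference between NK cells and T and B cells itself changed with age was tested as an interaction with the mouse as a block, and 0 of 759 genes were called (0%) by edgeR, with 24 at an unadjusted p below 0.05 and 1 call by DESeq2. The smallest adjusted p was 0.145, for Hspa1a, which stood at 177, 126, 1248, 323 and 48.7 CPM in T and B cells. Gzma, the next gene, was higher in both aged NK sums than in any young one, but its interaction did not pass (adjusted p = 0.436). Without Young A 3 genes were called and without Aged A 1.

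The share of NK cells among NK plus T and B cells was 69.2%, 27.3% and 66.7% in Young A, B and C and 31.25%, 20.8%, 20% and 14.3% in Aged A, B, C and D, from 5 to 24 cells per mouse. The means were 54.4% ± 23.5 (SD, n = 3) and 21.6% ± 7.07 (SD, n = 4), and the groups overlapped through Young B (exact two-sided permutation p = 0.0571, adjusted over the 5 shares p = 0.0952). The smallest p that 3 against 4 mice allow is 0.0286.

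Among immune cells, both types took a larger share in every aged mouse than in any young one. NK cells made up 4.13%, 4.23% and 7.66% of immune cells in young and 12.5%, 14.3%, 10.0% and 9.09% in aged mice (exact permutation p = 0.0286, adjusted p = 0.0952). T and B cells made up 1.83%, 11.3% and 3.83% in young and 27.5%, 54.3%, 40% and 54.5% in aged mice (exact permutation p = 0.0571, adjusted p = 0.0952). The immune cells numbered 71 to 218 per young mouse and 10 to 40 per aged mouse. Neither share passed the adjustment.

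Neither type's share of all cells passed the test. NK cells averaged 0.399% ± 0.161 (SD, n = 3) in young and 0.156% ± 0.112 (SD, n = 4; exact permutation p = 0.0857, adjusted p = 0.107), and T and B cells stood at 0.363% ± 0.239 and 0.510% ± 0.200 (exact permutation p = 0.4).

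**Figure D5:**
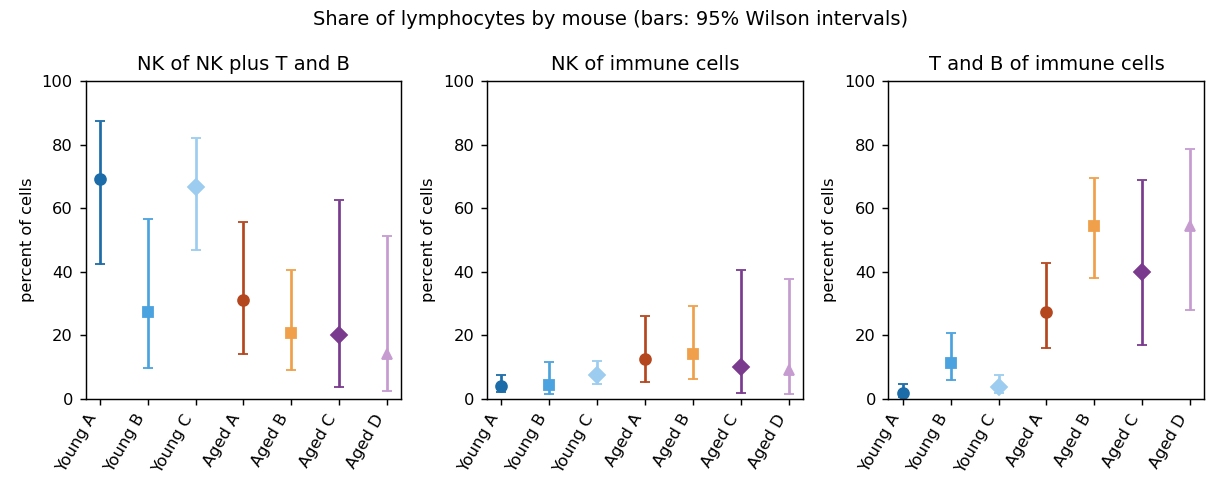
Share of cells (y axis, percent) in each of the 7 mice (x axis), for NK cells among NK plus T and B cells, NK cells among immune cells and T and B cells among immune cells, with 95% Wilson intervals as bars. The T and B share of immune cells lies between 1.83% and 11.3% in young and between 27.5% and 54.5% in aged mice.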

How the data were processed

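Single-cell RNA of mammary glands was measured in 7 mice with 10x 3′ v2 libraries, 1 per mouse. The authors used Cell Ranger 2.0 and mm10, kept cells within set ranges of UMIs, detected genes and mitochondrial content, and deposited UMI counts of single cells that were neither normalized nor pooled over mice. The authors also deposited the mitochondrial fraction of UMIs, a cell cycle phase from Seurat and a cell type name from Seurat clusters for each cell, and these names were used as given.

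Sums of counts over the cells of a type in a mouse were tested with edgeR 4.0.16 in R 4.3.3 (quasi-likelihood test, filterByExpr on the design, TMM scaling, mouse as a block, Benjamini-Hochberg adjustment), at an adjusted p below 0.05 and at least 2-fold between types or 1.5-fold with age. The NK and T and B sums of a mouse come from the same animal, which is what the block pairs, and their deviations from the type means correlated at 0.017 to 0.292 across genes. In Young A, Young B and Aged B the NK sum correlated better with the T and B sum of another mouse than with its own. The filter takes the design matrix, as planned, and filtering by cell type is given as an alternative, a choice made with both seen. The tests were checked on simulated data. Shares of cells were compared over all 35 divisions of 7 mice into 3 and 4, and paired cell measures over all sign changes, by exact permutation tests. Doublets were called with Scrublet at an expected rate of 0.06, and each cell was thinned to 2000 UMIs where depths were equalized. Each mouse is 1 animal and the unit of every test. In the paired fit the block takes out what both sums of a mouse share. Its p-values set the difference between types against its variation between mice and counting noise. In the comparisons of age within a type and of shares, p-values measure the spread between animals, counting noise included.

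Genes named are the lymphocyte genes the study names (as a description, with the test given where they were also called), the 10 called genes of largest fold in each direction that went the same way in every mouse, called genes of 18 lists, up to 3 of the highest genes of lists without a call, and up to 5 called with age. Some genes that the rule covers are not reported here. The groups, members and lists were chosen with earlier results of these data known. DESeq2 1.42.0, RLE factors, other filters, other cell minimums, subsets of cells, thinning and leaving out each mouse were tried. The fold of a gene with at most 3 UMIs on one side is given as a ratio of summed counts with an exact 95% interval or as a bound.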

Additional observations from a re-analysis of the deposited data

How the results depend on the processing

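Of the genes called higher in NK cells (10) and lower (2), the counts were 17 and 4 with DESeq2, 29 and 10 without a filter on low counts, 6 and 1 with at least 4 cells of both types, 3 and 0 without ribosomal protein and mitochondrial genes, 0 and 0 in young mice only and 1 and 0 in aged mice only. Without the replicate block, that is without pairing by mouse, 6 genes were called higher and 1 lower, 5 and 0 of them shared with the paired fit. Lower genes numbered 4 with at least 1 cell of both types, 0 with sums thinned to equal totals and 8 without NK cells with Cd3 UMIs, an alternative that leaves 5, 1, 9, 3 and 2 NK cells and that itself removes Cd3d and Cd3g, which are among the 8. Of the alternatives chosen after seeing the data, filtering by cell type gave 5 and 1, and leaving out T and B cells without Cd3 UMIs gave 1 lower. With the filter by cell type Fcer1g, Tyrobp, Cd7, Xcl1, AW112010 and Ifi27l2a were called. Ncr1, Cd160, Klrd1, Dcn, Gsn and Rora were not, so their calls depend on the filter. Each of them passed the main filter only through sums of the type in which it was high. Leaving out 1 mouse at a time gave 1 to 6 higher and 0 to 1 lower. No called gene changed sign in an alternative in which it was tested. Calls were kept by Cd7 in 17 of 21 such alternatives, Fcer1g in 15 of 21, Tyrobp in 13 of 21, AW112010 in 12 of 21, Xcl1 in 11 of 21, Ifi27l2a in 10 of 21, Dcn in 12 of 17, Gsn in 11 of 17, Klrd1 in 10 of 18, Ncr1 in 9 of 16, Cd160 in 5 of 8 and Rora in 5 of 14. These tallies count the removal of doublets, which removed no cell and so repeats the main fit. They also count the same fit under 2 names, as at least 4 cells of both types leaves out Young B alone.

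Genes called with age in NK cells (3) numbered 11 with DESeq2, 33 without the filter and 2 to 13 with 1 mouse left out, the 13 without Young A. In T and B cells (3) they numbered 7, 44 and 1 to 4, the 1 without Young A. The interaction (0) had 1 with DESeq2, 2 without the filter, 1 with thinned sums and 0 to 3 with 1 mouse left out, the 3 without Young A. The difference in median genes per cell was -69.4 with at least 4 cells and -69.4 to 75.5 with 1 mouse left out, that in UMIs -363 to 159, and that in percent of cells in S or G2M phase -6.57 to 2.11. The cause of these changes was not tested. The 5 shares kept their direction in all alternatives run, and none passed the threshold. With 1 mouse left out too few divisions of the mice remain to reach a p below 0.05, so those runs could not pass it. Apart from alternatives that leave out cells or lower the minimum, the sums rest on 3 to 19 cells, and a gene below about 232 CPM in the smallest sum could not be told from 0.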

Other observations

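The single NK cells of Aged C and Aged D entered the comparison of gene expression with T and B cells only in the alternative that takes 1 cell as enough. The cell of Aged C had a Cd3 UMI and that of Aged D had none. Gzma made up 19594 CPM (85 UMIs) in the cell of Aged C and 9998 CPM (44 UMIs) in that of Aged D. Fcer1g had 10 and 7 UMIs, Tyrobp 8 and 14, Cd7 16 and 4, and AW112010 8 and 10, so that all 4 genes were found in both cells. Ncr1 had 0 and 1 UMIs, Klrd1 2 and 0, Xcl1 24 and 0, and Cd160, Rora, Ifi27l2a, Dcn and Gsn had none in either.

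Genes outside the lists also separated the types without being called, and they were picked after their values were seen. Hnrnpa2b1, a splicing factor, stood at 365, 1006, 487, 329.9 and 553 CPM in NK cells and 237, 253, 215, 209.9 and 256 CPM in T and B cells (log2 fold change 1.17, SE 0.30, adjusted p = 0.124). Zfp36l2, which promotes mRNA decay, stood at 344, 619, 514, 377 and 298 CPM in NK cells and 296, 189.7, 86.1, 178 and 256 CPM in T and B cells (log2 fold change 1.18, SE 0.41, adjusted p = 0.312). In both genes every NK sum lay above every T and B sum. Ramp3, a receptor activity modifying protein, had the other order, at 0, 0, 81.1, 0 and 0 CPM in NK cells and 414, 221, 215, 371 and 621 CPM in T and B cells (log2 fold change -3.63, SE 0.85, adjusted p = 0.0874), and Ctla2a, a protease inhibitor first described in activated T cells, stood at 344, 309.7, 365, 47.1 and 340.3 CPM in NK cells and 532, 506, 1399, 856 and 1023 CPM in T and B cells (log2 fold change -1.58, SE 0.44, adjusted p = 0.165). All adjusted p-values are from edgeR's quasi-likelihood test.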
